A study of Mus musculus with 6 samples.

Results

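Nuclear receptors are transcription factors that bind hormones, vitamins, lipids or foreign compounds, or act with no known ligand. The genes described here are 46 members of this superfamily, taken from a list by gene symbol. Of these, 44 were measured on the array, out of 19938 genes measured in all, each by a single probe set that is annotated to it alone. Nr1h2, which encodes LXR beta, and Nr2e3, a photoreceptor orphan receptor, were not analysed here. No filter on low values was used, so every measured member entered the test.

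The livers came from male mice of the inbred C57BL/6 strain, with 1 Affymetrix Mouse Gene 1.0 ST array for each of 6 RNA samples. The mice were 6 weeks old on arrival and had 1 week on chow before the diets. In the cholesterol group (CH, 3 arrays) the chow carried 1% cholesterol by weight. In the lovastatin and ezetimibe group (LE, 3 arrays) 100 g of chow carried 100 mg of lovastatin, which blocks cholesterol synthesis, and 21 mg of ezetimibe, which blocks cholesterol uptake from the gut. None of the 6 arrays is from plain chow, a further diet in the labels. All differences below are between the drug and cholesterol diets. How long the diets were fed, and at what hour the livers were taken, is not stated in the sources used here. Per the labels the arrays of a diet are biological replicates, with no animal named for each. The p-values therefore rest on the spread among 3 arrays of each diet, which limma draws towards the spread typical of all genes. Some of the spread among arrays may be technical. The tissue carries several cell types, and in bulk RNA fewer cells of a type and less RNA per cell cannot be told apart.

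In the liver, nuclear receptors connect the metabolic state to transcription. LXR senses oxysterols, FXR senses bile acids, the PPARs sense fatty acids, and CAR and PXR sense drugs and bile acids. Most of these bind DNA as partners of a retinoid X receptor, at repeats of a core sequence that reads AGGTCA or close to it. REV-ERB and ROR receptors compete for related sites in the circadian clock, whereas HNF4 alpha maintains hepatocyte identity.

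With lovastatin and ezetimibe, 3 receptors rose and 7 fell relative to cholesterol. The genes that rose were Rarb, a retinoic acid receptor, at 1.54-fold, the orphan receptor Nr2c1 at 1.37-fold and the fatty acid receptor Ppard at 1.19-fold. Those that fell were both REV-ERB genes, Nr1d2 and Nr1d1, with Pparg, Thrb, Nr6a1, Esr1 and Nr2f2. These 10 made up 22.7% of the 44 measured receptors, beside 12.1% of all genes past limma's Benjamini-Hochberg adjusted p of 0.05. Of the 44 receptors 31 had signals above the median gene, where 20.0% of all genes passed, against 4.13% below it. The shares given here are not matched for signal. In the direction of higher expression 6.82% of the receptors passed beside 7.01% of all genes, and in the direction of lower expression 15.9% beside 5.08%. Without CH1 the share of lower receptors was 2.27% (1 of 44) beside 2.76% of all genes, and over the other arrays left out in turn it was 6.82% to 18.2% beside 2.63% to 4.48%. The changes were small: the largest was 0.62 on the log2 scale, and 0 receptors changed 2-fold, where 154 genes of the whole array passed and did. The median change of the 44 receptors was -0.03 and that of all genes was -0.0049.

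With single arrays left out, the count of 10 became 3 without CH1, 6 without CH3, 6 without LE2, 7 without CH2, 7 without LE1 and 10 without LE3. The count over all genes fell as well, from 2410 to between 1489 (without CH1) and 1868 (without LE3). Each of these tests has fewer arrays, so a lost call need not mean a smaller change. Rarb, Nr2c1 and Nr1d2 passed in each of the 15 alternative settings, which include leaving out each array in turn. The values of the diets did not overlap for 20 of the 44 receptors (45.5%), 13 lower and 7 higher with lovastatin and ezetimibe, beside 30.6% of all genes. These shares are not matched for signal either.

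**Figure D1:**
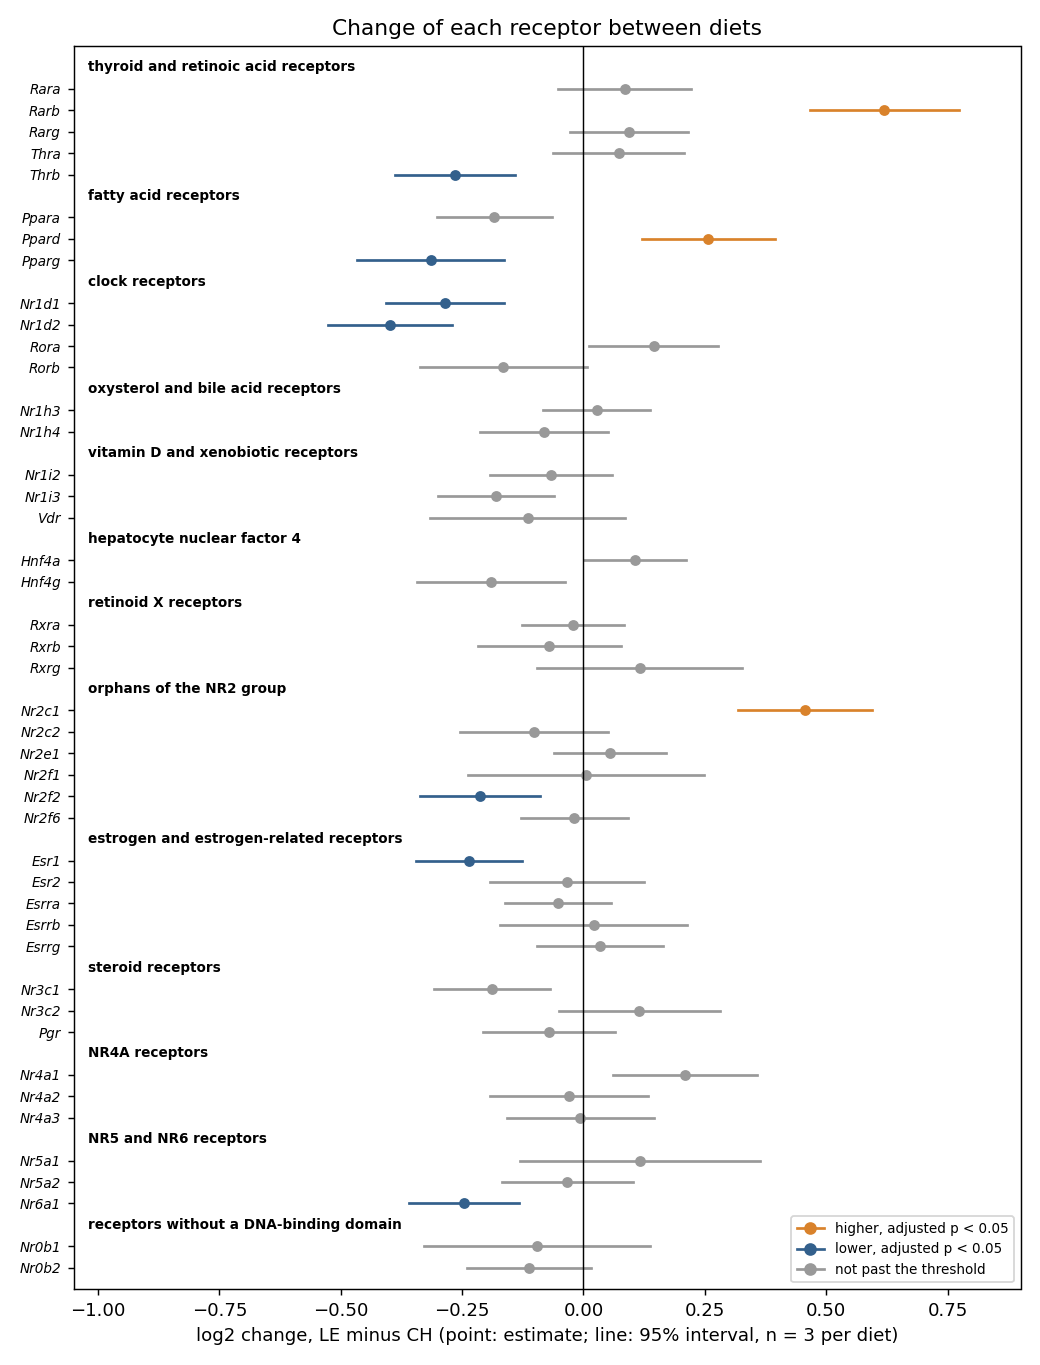
Change of each of the 44 measured receptors between the diets, grouped by role, as lovastatin and ezetimibe (LE) minus cholesterol (CH) on the log2(intensity + 1) scale. Points are limma estimates and lines 95% intervals that are not adjusted for multiple tests, with n = 3 arrays per diet. Rarb stands farthest to the right at 0.62 and Nr1d2 farthest to the left at -0.40.

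Signals are given as log2(intensity + 1), and their order is that of probe set signals, which also depend on how well each probe binds, so it is not an order of transcript abundance. Hnf4a had the highest signal of the receptors in both diets, at 12.82 ± 0.0044 (SD, n = 3) with cholesterol and 12.93 ± 0.03 (SD, n = 3) with lovastatin and ezetimibe, in the 98.9th percentile of all genes. Nr1d1, Rxra, Ppara and Nr1i3 followed with mean signals over the 6 arrays between the 95.4th and 96.8th percentiles. Rxra and Ppara lay 0.01 apart in this order, less than their SD within a diet (0.02 and 0.04). Nr1h4 (FXR), Nr1h3 (LXR alpha), Nr5a2 and Nr1i2 (PXR) came next between the 91.2th and 92.2th percentiles, with gaps from 0.02 to 0.10 between neighbours. After Nr0b2, Nr1d2 and Rora lay 0.0035 apart, again within their SD (0.06 and 0.06). In all, 9 receptors were above the 90th percentile of signals, and Nr1d1 was the member of these that passed the test.

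At the other end, 13 of the 44 receptors had signals below the median gene. As a measure of the signal where little expression is known in liver, the 1015 measured olfactory receptor genes had a median of 5.55 and a 95th percentile of 6.91. The signals of 11 receptors lay at or under that percentile: Nr4a2, Nr2f1, Nr2e1, Esrrb, Rorb, Esr2, Pgr, Vdr, Hnf4g, Nr0b1 and Nr4a3, the last with the lowest signal of the receptors (5.52 ± 0.11 and 5.52 ± 0.04, SD, n = 3). No detection call is given for these values, so a dim signal sets no limit on expression. None of these 11 receptors passed the test, and all 10 that passed lay among the 31 receptors in the upper part of the signal range, where 20.0% of all genes passed against 4.13% in the lower part. Arrays of a diet also differed more for dim receptors, with a median SD of 0.09 in the lower part and 0.06 in the upper part.

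**Figure D2:**
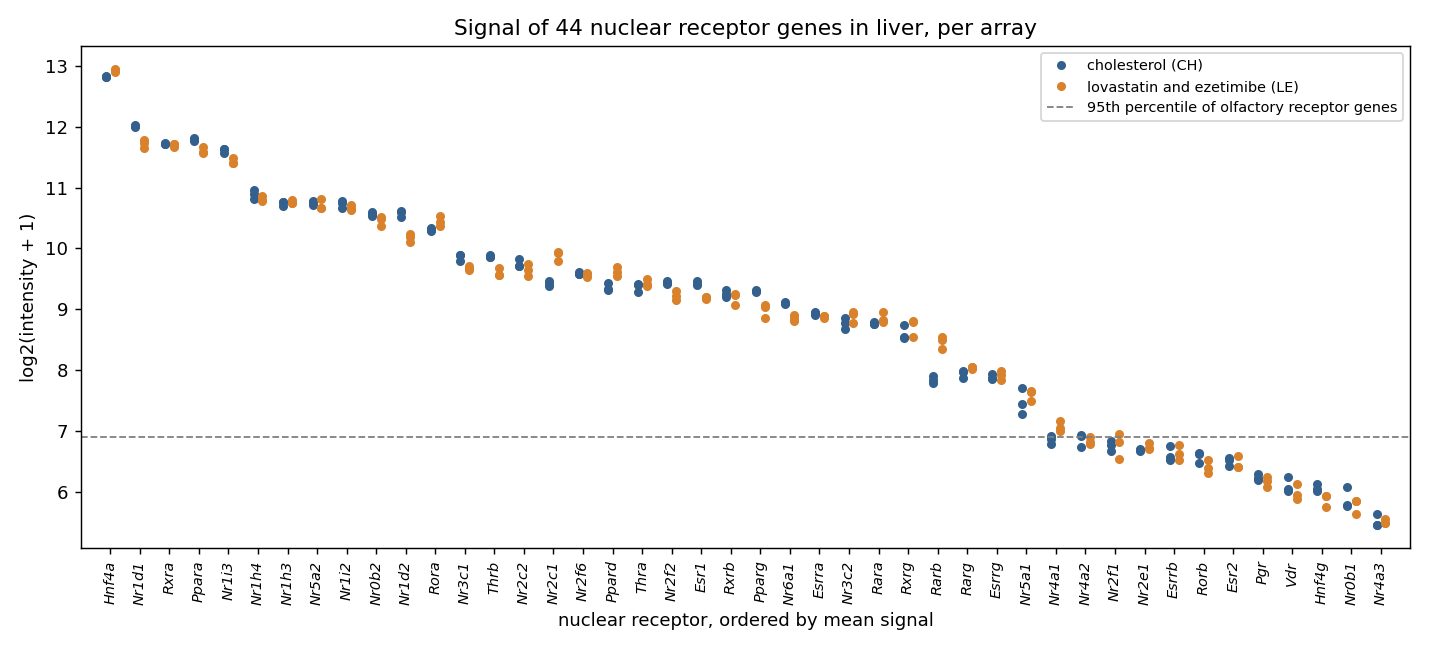
Signal of the 44 measured receptors on each array, on the log2(intensity + 1) scale, ordered by the mean over the 6 arrays. Each point is an array, blue for cholesterol and orange for lovastatin and ezetimibe, and the dashed line is the 95th percentile of the olfactory receptor genes at 6.91.

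Among the retinoic acid and thyroid hormone receptors, 1 of 5 rose and 1 fell. Rarb encodes the retinoic acid receptor whose own promoter carries a well-known retinoic acid response element, which lets its ligand induce it. The signals were 7.90, 7.85 and 7.79 in CH1 to CH3 and 8.35, 8.50 and 8.55 in LE1 to LE3. All lovastatin and ezetimibe arrays stood above all cholesterol arrays. The change was 0.62 on the log2 scale (SE 0.07, n = 3 per diet, adjusted p = 7.19e-04, and 2.25e-06 to 0.00992 over the alternatives). Rara and Rarg, the other retinoic acid receptors, changed by 0.08 (SE 0.06, adjusted p = 0.442) and 0.09 (SE 0.05, adjusted p = 0.328), with 95% intervals of -0.05 to 0.22 and -0.03 to 0.22.

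The 100 bases before the Rarb transcript start are shown because this receptor changed the most and the response element lies in them. They come from RefSeq, build GRCm38.p6, at chr14:16575477-16575576 on the minus strand, with the element in capitals. Here and below, where a gene has several starts, the start shown has the most matches to the letters in capitals.
Rarb: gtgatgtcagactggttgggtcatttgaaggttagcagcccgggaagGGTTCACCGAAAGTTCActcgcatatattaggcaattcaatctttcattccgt
The letters searched on both strands, GGTTCA, any 5 bases and AGTTCA, are those known from this gene and were chosen with its change in view. They begin at base -53 before the start and were found in 2 of 32851 promoters of the RefSeq table (0.00609%), which gives 300 bases per start. Of the 46 listed receptors 42 were matched in that table by symbol, with 63 promoters between them. A match is a description of the sequence and says nothing of binding in these livers.

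Thrb encodes the main thyroid hormone receptor of hepatocytes. Its signals were 9.87, 9.86 and 9.89 in CH1 to CH3 and 9.57, 9.57 and 9.69 in LE1 to LE3. The diets did not overlap. Thrb fell by 0.26 (SE 0.05, adjusted p = 0.0163), but did not pass without CH1, CH3, LE1 or LE2 (adjusted p 0.0563 to 0.0661; all alternatives 5.40e-04 to 0.0661). Thra, the other thyroid hormone receptor, changed by 0.07 (SE 0.06, adjusted p = 0.517, 95% interval -0.06 to 0.21).

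Both clock repressors fell. Nr1d2 encodes REV-ERB beta, with signals of 10.52, 10.61 and 10.61 in CH1 to CH3 and of 10.20, 10.11 and 10.23 in LE1 to LE3. It fell by 0.40 (SE 0.06, adjusted p = 0.00283, and 3.48e-06 to 0.0172 over the alternatives). Nr1d1 encodes REV-ERB alpha, with signals of 12.03, 12.01 and 11.99 in CH1 to CH3 and of 11.73, 11.65 and 11.78 in LE1 to LE3. It fell by 0.29 (SE 0.05, adjusted p = 0.0111), and its call was lost without CH1 (adjusted p = 0.0528, and 1.43e-05 to 0.0528 over the alternatives). In both genes the lowest cholesterol array stood above the highest lovastatin and ezetimibe array. Rora, the activator that competes for the same sites, was at 10.30 ± 0.02 (SD, n = 3) with cholesterol and 10.45 ± 0.08 (SD, n = 3) with the drugs. Its difference of 0.14 (SE 0.06, adjusted p = 0.167, 95% interval 0.01 to 0.28) did not pass, and neither did that of Rorb (-0.17, SE 0.07, adjusted p = 0.221), whose signal was dim.

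The REV-ERB genes moved together, so the 100 bases before a start of each gene are printed. The start taken had the most matches, over its 300 bases, to the letters searched below. Both windows are on the minus strand of GRCm38.p6 from RefSeq, at chr11:98775378-98775477 for Nr1d1 and chr14:18239107-18239206 for Nr1d2. Capitals mark AGGTCA, the core of nuclear receptor sites, CACGTG, the E-box of the clock activators, and TTANGTAA, the D-box, each searched on both strands.
Nr1d1: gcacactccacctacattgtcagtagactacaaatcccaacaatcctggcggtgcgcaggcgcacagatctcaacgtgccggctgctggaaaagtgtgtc
Nr1d2: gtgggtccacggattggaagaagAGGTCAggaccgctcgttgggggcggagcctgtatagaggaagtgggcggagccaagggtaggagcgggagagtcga
Nr1d2 holds AGGTCA from base -77, and the Nr1d1 window holds none of these letters. Of all promoters 16.3% hold AGGTCA, 7.15% CACGTG and 2.32% TTANGTAA. Over the full 300 bases, CACGTG is in 6 of the 63 receptor promoters. These belong to 5 receptors, of which 1, Thrb, passed the test. TTANGTAA is in 1 receptor promoter, that of Rorb. The longer NTAGGTCA, which contains AGGTCA, is in 2.59% of promoters and in 0 of the 63 promoters of the receptors, and a sterol element, TCACNCCAC, is in 1.24% and in 1 receptor promoter, that of Nr0b1. No match in a window says only that these letters are not there.

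Several of these receptor genes share a chromosome. In the RefSeq gene table of GRCm38.p6, Rarb and Thrb lie 576893 bases apart with 0 coding genes starting between them. Nr1d2 lies 163958 bases from Thrb, with 1 coding gene starting between. On another chromosome Thra and Nr1d1 overlap, and Nr1d1 and Rara lie 152422 bases apart with 5 coding genes starting between them. In the first group Rarb rose while Thrb and Nr1d2 fell, and in the second Nr1d1 fell while Rara and Thra did not pass. Thra and Nr1d1 were each measured by a probe set annotated to that gene alone. Whether transcripts from the overlap add to either signal was not tested.

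Of the 3 fatty acid receptors 1 rose, 1 fell and 1 did not pass. Ppard, which is expressed in many tissues, had signals of 9.32, 9.33 and 9.43 in CH1 to CH3 and of 9.61, 9.55 and 9.70 in LE1 to LE3. It rose by 0.26 (SE 0.06, adjusted p = 0.0282), but did not pass without CH1, CH2, LE1 or LE3 (adjusted p 0.0681 to 0.107; all alternatives 0.00169 to 0.107). Pparg, the regulator of fat storage, had signals of 9.29, 9.32 and 9.30 in CH1 to CH3 and of 8.86, 9.03 and 9.07 in LE1 to LE3. It fell by 0.31 (SE 0.07, adjusted p = 0.0187). Pparg stayed lower when CH1, CH2 or CH3 was left out (-0.32, -0.31 and -0.32), but did not pass (adjusted p 0.0520 to 0.0591). Among the alternatives its smallest adjusted p was 7.26e-04 and its largest 0.0591. LE1 was the lowest Pparg array. Ppara, the receptor of the fasting response in hepatocytes, was 11.81, 11.77 and 11.79 in CH1 to CH3 and 11.59, 11.56 and 11.67 in LE1 to LE3. The diets did not overlap for Ppara, yet its difference of -0.18 (SE 0.05, adjusted p = 0.0566) did not pass. It passed in 7 of the 15 alternatives, with adjusted p from 9.45e-04 to 0.179.

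The sensors of sterols and bile acids did not pass. Nr1h3, LXR alpha, was at 10.74 ± 0.03 (SD, n = 3) with cholesterol and 10.77 ± 0.02 (SD, n = 3) with the drugs, a difference of 0.03 (SE 0.05, adjusted p = 0.798, 95% interval -0.08 to 0.14), which turned to -0.01 after quantile normalisation. Nr1h4, FXR, differed by -0.08 (SE 0.06, adjusted p = 0.448, 95% interval -0.21 to 0.05). Nr0b2 encodes SHP, a receptor without a DNA-binding domain that FXR induces and that represses bile acid synthesis. Its signals were 10.59, 10.54 and 10.57 in CH1 to CH3 and 10.51, 10.49 and 10.37 in LE1 to LE3, without overlap. The difference of -0.11 (SE 0.06, adjusted p = 0.265) did not pass. Nr5a2, which encodes LRH-1, an activator of bile acid genes that SHP represses, differed by -0.03 (SE 0.06, adjusted p = 0.798, 95% interval -0.17 to 0.10).

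Of the xenobiotic receptors, Nr1i3 (CAR) was lower on every drug array. Its signals were 11.64, 11.57 and 11.63 in CH1 to CH3 and 11.40, 11.40 and 11.49 in LE1 to LE3. The difference of -0.18 (SE 0.05, adjusted p = 0.0627) did not pass, and it passed in 6 of the 15 alternatives (adjusted p 0.00173 to 0.200). Nr1i2 (PXR) differed by -0.07 (SE 0.05, adjusted p = 0.515). The vitamin D receptor Vdr was at 6.11 ± 0.13 and 5.99 ± 0.13 (SD, n = 3 each), a dim signal with a difference of -0.11 (SE 0.09, adjusted p = 0.485).

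The retinoid X receptors, partners of most receptors above, did not pass. Rxra was at 11.72 ± 0.0083 (SD, n = 3) and 11.70 ± 0.02 (SD, n = 3), with a 95% interval of the difference of -0.13 to 0.08. Rxrb differed by -0.07 (SE 0.06) and Rxrg by 0.12 (SE 0.09), with Rxrg among the receptors that varied most between arrays of a diet (SD 0.14). Hnf4a was higher on every drug array, at 12.95, 12.90 and 12.93 in LE1 to LE3 against 12.82, 12.83 and 12.82 in CH1 to CH3. This difference of 0.11 (SE 0.05, adjusted p = 0.200) did not pass, and passed in 2 of the 15 alternatives, those with an intensity trend and in the manner of cyberT (adjusted p 0.00962 to 0.399 over all). Hnf4g, its dim relative, differed by -0.19 (SE 0.07, adjusted p = 0.116).

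Among the orphan receptors of the NR2 group, 1 of 6 measured rose and 1 fell. Nr2c1 encodes testicular receptor 2, which binds repeats of AGGTCA as a homodimer or with the Nr2c2 product. Its signals were 9.47, 9.38 and 9.44 in CH1 to CH3 and 9.79, 9.93 and 9.94 in LE1 to LE3. The diets were separated by more than the spread within either, and the change was 0.46 (SE 0.06, adjusted p = 0.00210, and 3.74e-06 to 0.0165 over the alternatives). Nr2c2 was at 9.75 ± 0.06 and 9.65 ± 0.10 (SD, n = 3 each) and differed by -0.10 (SE 0.07, adjusted p = 0.405). Nr2f2 encodes COUP-TFII, known from veins and mesenchymal cells as well as hepatocytes. It was 9.43, 9.42 and 9.46 in CH1 to CH3 and 9.22, 9.16 and 9.30 in LE1 to LE3. It fell by 0.21 (SE 0.05, adjusted p = 0.0391), but Nr2f2 did not pass when CH1, CH2, CH3, LE1 or LE2 was left out (adjusted p 0.0875 to 0.126), with a range of 0.00557 to 0.126 in the alternatives. Nr2f6 (-0.02, SE 0.05), Nr2f1 (0.0048, SE 0.10) and Nr2e1 (0.06, SE 0.05) did not pass. The sign of Nr2f1 turned in 4 alternatives and that of Nr2f6 in 1.

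In the steroid and estrogen-related groups, Esr1 passed. Esr1 encodes estrogen receptor alpha, which is also expressed in male liver. Its signals were 9.46, 9.41 and 9.39 in CH1 to CH3 and 9.20, 9.20 and 9.16 in LE1 to LE3. Esr1 fell by 0.24 (SE 0.05, adjusted p = 0.0164), and the call was lost without CH1 or LE2 (adjusted p 0.0813 and 0.0535, and 0.00139 to 0.0813 over all alternatives). Esr2, Esrra, Esrrb and Esrrg did not pass, with differences from -0.05 to 0.03, of which those of Esrrb and Esrrg changed sign in some alternatives. Nr3c1, the glucocorticoid receptor, was 9.89, 9.80 and 9.90 in CH1 to CH3 and 9.64, 9.68 and 9.71 in LE1 to LE3. All drug arrays were below all cholesterol arrays, but the difference of -0.19 (SE 0.05, adjusted p = 0.0542) did not pass. It passed in 6 of the 15 alternatives (adjusted p 0.00748 to 0.181). Nr3c2, the mineralocorticoid receptor, differed by 0.12 (SE 0.07, adjusted p = 0.386) and the progesterone receptor gene Pgr by -0.07 (SE 0.06, adjusted p = 0.531).

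Nr6a1 encodes germ cell nuclear factor, a repressor known from germ cells and the early embryo. Its signals were 9.10, 9.08 and 9.11 in CH1 to CH3 and 8.85, 8.81 and 8.90 in LE1 to LE3. Nr6a1 fell by 0.25 (SE 0.05, adjusted p = 0.0152), but did not pass without CH1, CH3 or LE2 (adjusted p 0.0558 to 0.0658; all alternatives 0.00206 to 0.0658). Of its 2 starts in the table, the start with the most AGGTCA is shown. This start holds AGGTCA at 2 places in the 100 bases before it, read on the opposite strand as TGACCT. The window is chr2:38784516-38784615 on the minus strand of GRCm38.p6, from RefSeq, with both in capitals.
Nr6a1: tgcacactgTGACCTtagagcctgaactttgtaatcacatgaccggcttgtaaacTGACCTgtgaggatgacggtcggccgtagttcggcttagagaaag
Over the full 300 bases per start, AGGTCA was found in 12 of the 63 receptor promoters, beside 16.3% of all promoters. These belong to 11 of the 42 matched receptors, and a receptor can have several starts. The 10 receptors that changed were all matched, and 4 of them hold it: Nr6a1, Nr1d2, Pparg and Thrb.

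The stress-inducible NR4A receptors did not pass. Nr4a1 was at 6.87 ± 0.07 (SD, n = 3) with cholesterol and 7.07 ± 0.09 (SD, n = 3) with the drugs, without overlap. The first of these signals lay under the olfactory receptor genes' 95th percentile of 6.91, so the size of its difference is uncertain. The difference was 0.21 (SE 0.06, adjusted p = 0.0789), and passed once arrays were quantile normalised and once the dimmest genes were left out (adjusted p 0.0305 to 0.209 over all alternatives). Nr4a2 (-0.03, SE 0.07) and Nr4a3 (-0.0063, SE 0.07) were dim, and both changed sign in some alternatives. Nr5a1, steroidogenic factor 1 of adrenal and gonad, varied the most of the receptors between arrays of a diet (SD 0.16), with 7.45, 7.71 and 7.29 in CH1 to CH3, and Nr0b1, the other receptor without a DNA-binding domain, differed by -0.10 (SE 0.10, adjusted p = 0.631). Of the 34 receptors that did not pass, 21 had 95% intervals within 0.25 of 0 on the log2 scale in both directions, so for the rest a change of that size lay inside the interval.

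**Figure D3:**
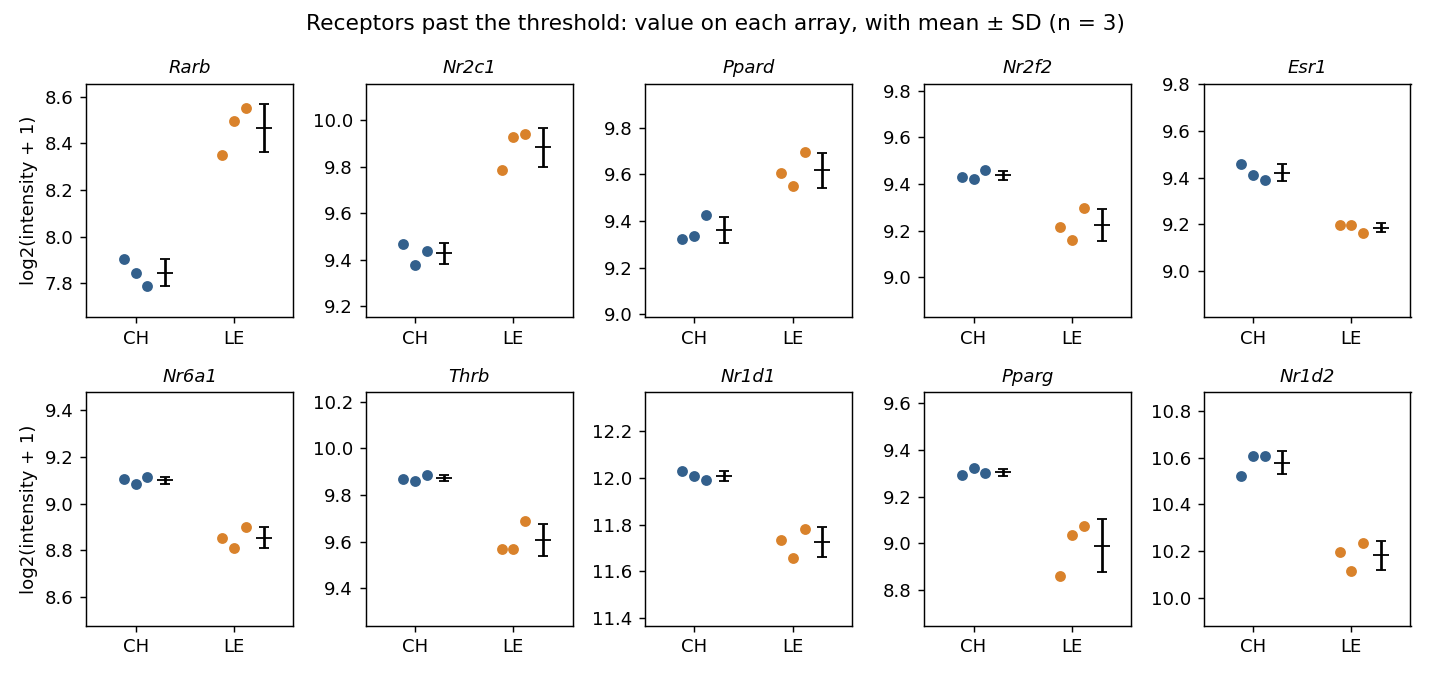
The 10 receptors past the threshold, with the log2(intensity + 1) value on each array (blue, cholesterol, CH; orange, lovastatin and ezetimibe, LE) and the mean ± SD of each diet (n = 3) beside the points. Each panel spans 1 log2 unit, the replicates are in no order, and the diets do not overlap in any of the 10 panels.

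Cofactors carry out what receptors do at their sites, coactivators by modifying chromatin and corepressors by recruiting deacetylases. Of 16 coactivators 1 rose and 1 fell, and the median change was -0.02. Ppargc1a, the PGC-1 alpha gene, an inducible coactivator of the fasting liver, went from 8.69 ± 0.06 to 9.65 ± 0.11 (SD, n = 3 each) and rose 1.95-fold (0.97, SE 0.07, adjusted p = 8.68e-05). Its relative Ppargc1b went from 8.74 ± 0.05 to 8.15 ± 0.06 (SD, n = 3 each) and fell by 0.59 (SE 0.05, adjusted p = 3.24e-04). Of 9 measured corepressors 0 rose and 1 fell in limma's test, with 4 at an unadjusted p under 0.05 and 2 in each direction in the manner of cyberT. That gene, Tbl1x, a subunit of the NCoR complex, fell by 0.31 (SE 0.06, adjusted p = 0.0174), but did not pass without CH1, CH3, LE1 or LE2 (adjusted p 0.0501 to 0.0712; all alternatives 1.11e-04 to 0.0712).

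Of 18 measured enzymes that make or remove receptor ligands, 4 rose, 1 fell and 13 did not pass, with a median of 0.02. Cyp39a1, an oxysterol hydroxylase, rose 2.37-fold (1.24, SE 0.06, adjusted p = 6.93e-06), and Cyp7b1, which also hydroxylates oxysterols, fell by 0.66 (SE 0.05, adjusted p = 7.55e-05). Cyp2r1, the vitamin D 25-hydroxylase, rose by 0.59 (SE 0.06, adjusted p = 6.61e-04), and Rdh10, a retinol dehydrogenase on the path to retinoic acid, rose by 0.44 (SE 0.06, adjusted p = 0.00178).

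Known target genes were set beside their receptors. Each list is described by its counts and median, and no list was tested as a set. For retinoic acid, 0 of 8 measured targets passed limma's test in either direction beside the rise of Rarb, also 0 at an unadjusted p under 0.05 and 0 in the manner of cyberT, with changes from -0.14 for Stra6, a retinol transporter (SE 0.06, adjusted p = 0.204), to 0.11 for Tgm2, a transglutaminase (SE 0.05, adjusted p = 0.241), and a median of -0.08.

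For REV-ERB and ROR, 1 of 6 measured targets rose and 2 fell, with a median of -0.17. Arntl, the BMAL1 gene, went from 8.80 ± 0.05 to 9.14 ± 0.07 (SD, n = 3 each) and rose by 0.34 (SE 0.06, adjusted p = 0.00743). Nfil3, a repressor of D-box genes, fell by 0.36 (SE 0.05, adjusted p = 0.00285) and Elovl3, a fatty acid elongase, by 0.41 (SE 0.05, adjusted p = 0.00139). All 6 had an unadjusted p under 0.05, and 1 rose and 4 fell in the manner of cyberT. Without LE3, 4 of these genes fell. Of 10 clock genes driven through E-boxes 2 rose and 3 fell. Ciart, a clock repressor, rose by 1.16 (SE 0.15, adjusted p = 0.00175) and Per1, of the negative limb, by 0.55 (SE 0.06, adjusted p = 9.64e-04), while the D-box activator Dbp fell by 1.01 (SE 0.06, adjusted p = 1.92e-05). The repressor Bhlhe41 was also called lower (adjusted p = 0.00151), but its signals of 6.36 ± 0.11 and 5.51 ± 0.19 (SD, n = 3 each) lay under the olfactory receptor genes' 95th percentile of 6.91 in both diets, so the size of its difference is not given.

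Targets of the thyroid hormone receptor rose in 2 of 6 cases and fell in 1. Me1, the malic enzyme, rose by 1.32 (SE 0.05, adjusted p = 2.32e-06) and Thrsp, a lipogenic regulator, by 0.77 (SE 0.05, adjusted p = 4.84e-05), beside the fall of Thrb. Klf9 fell by 0.19 (SE 0.05, adjusted p = 0.0388). Klf9 did not pass when CH1, CH2, CH3, LE1 or LE2 was left out (adjusted p 0.0903 to 0.134), and its adjusted p ran from 7.39e-04 to 0.134 in the alternatives.

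For the fatty acid receptors, 5 of 21 measured PPAR alpha targets rose and 9 fell, with a median of -0.16. Pdk4, which restrains glucose oxidation, rose by 1.56 (SE 0.05, adjusted p = 4.42e-07). The peroxisomal thiolase Acaa1b fell by 1.56 (SE 0.08, adjusted p = 1.66e-05) and the pantetheinase Vnn1 by 0.69 (SE 0.05, adjusted p = 1.19e-04). The thioesterase Acot1 was called lower (adjusted p = 3.02e-04), at 7.41 ± 0.09 with cholesterol and 6.70 ± 0.06 with the drugs (SD, n = 3 each). The second of these signals lay under the olfactory receptor genes' 95th percentile of 6.91, so the size of its difference is uncertain. Of the 21 targets 18 had an unadjusted p under 0.05, and 4 rose and 13 fell in the manner of cyberT. The rises numbered 3 when any 1 array was left out, and the falls 3 when CH1 or LE2 was dropped, 4 when CH3 was and 5 when LE1 was. None of 6 PPAR gamma targets passed limma's test, where 4 had an unadjusted p under 0.05 and 1 fell in the manner of cyberT. Without LE2, 1 of them rose. Cd36, a fatty acid transporter, differed by -0.18 (SE 0.05, adjusted p = 0.0762) and Plin4, a lipid droplet protein, by -0.18 (SE 0.06, adjusted p = 0.0968).

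The oxysterol receptor's targets went both ways while Nr1h3 did not pass, 2 of 12 higher and 5 lower, with a median of -0.08. Pltp, which transfers phospholipids between lipoproteins, rose by 2.80 (SE 0.05, adjusted p = 4.89e-08), whereas Srebf1, of fatty acid synthesis, fell by 1.44 (SE 0.05), the lipase Lpl by 1.27 (SE 0.06) and the apolipoprotein Apoc1 by 0.30 (SE 0.05). Membership of a list names no regulator here. Of 9 measured FXR targets 3 rose and 1 fell. Cyp8b1, which FXR and SHP repress, rose by 0.74 (SE 0.05, adjusted p = 5.85e-05) and Abcb4, the phospholipid exporter, by 0.56 (SE 0.05, adjusted p = 1.70e-04). Slc51b, of the bile acid exporter, rose by 0.36 (SE 0.08, adjusted p = 0.0262), lost without CH1, CH2, LE2 or LE3 (adjusted p 0.0770 to 0.0983; all alternatives 0.00333 to 0.0983). Cyp7a1, the enzyme that limits the rate of bile acid production, fell by 0.23 (SE 0.05, adjusted p = 0.0227). Cyp7a1 did not pass when CH1, CH2, CH3, LE1 or LE2 was left out (adjusted p 0.0607 to 0.0952), and its adjusted p ran from 2.91e-05 to 0.0952 in the alternatives.

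Of 12 measured CAR and PXR targets 5 rose and 2 fell, beside a lower Nr1i3 that did not pass. The organic anion transporter Slco1a4 rose by 1.34 (SE 0.05, adjusted p = 2.07e-06), Cyp2c55 by 1.22 (SE 0.05, adjusted p = 5.69e-06) and Alas1, of haem synthesis, by 0.49 (SE 0.05, adjusted p = 4.59e-04), while the carboxylesterase Ces2a fell by 0.49 (SE 0.05, adjusted p = 4.07e-04). Cyp2c55 and Ces2a belong to families of near-identical genes whose signals a probe set may not separate. With an intensity trend or in the manner of cyberT, 5 rather than 2 of the list fell.

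Glucocorticoid targets had the highest median of the receptor target lists, at 0.27, with 6 of 12 higher and 0 lower (10 at an unadjusted p under 0.05, and 9 higher and 1 lower in the manner of cyberT), beside a lower Nr3c1 that did not pass. Igfbp1, which binds insulin-like growth factors, went from 10.02 ± 0.0083 to 11.61 ± 0.05 (SD, n = 3 each) and rose by 1.59 (SE 0.05, adjusted p = 5.64e-07). Tsc22d3, the glucocorticoid-induced leucine zipper gene, rose by 0.78 (SE 0.05, adjusted p = 2.88e-05) and Fkbp5, a chaperone of the receptor, by 0.44 (SE 0.07, adjusted p = 0.00418). The list also holds Per1, given above, and genes such as Pck1, Tat and G6pc that did not pass.

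Among 8 measured HNF4 alpha targets 1 rose and 1 fell. The urea cycle gene Otc fell by 0.63 (SE 0.05, adjusted p = 1.91e-04), and the pyruvate kinase Pklr rose by 0.22 (SE 0.06, adjusted p = 0.0370), but did not pass when any 1 array was left out (adjusted p 0.0529 to 0.118; all alternatives 3.44e-04 to 0.118). Of 10 immediate early genes, which are induced together with the NR4A genes by many stimuli, 3 rose and 0 fell: Atf3 by 0.81 (SE 0.12, adjusted p = 0.00357), Jun by 0.70 (SE 0.05, adjusted p = 7.55e-05) and Dusp1 by 0.42 (SE 0.06, adjusted p = 0.00246). As a check of the diets, each of the 4 measured genes of the sterol response rose, Sqle by 5.50 (SE 0.06), Hmgcs1 by 3.29 (SE 0.05), Insig1 by 1.79 (SE 0.05) and Srebf2 by 1.77 (SE 0.05).

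**Figure D4:**
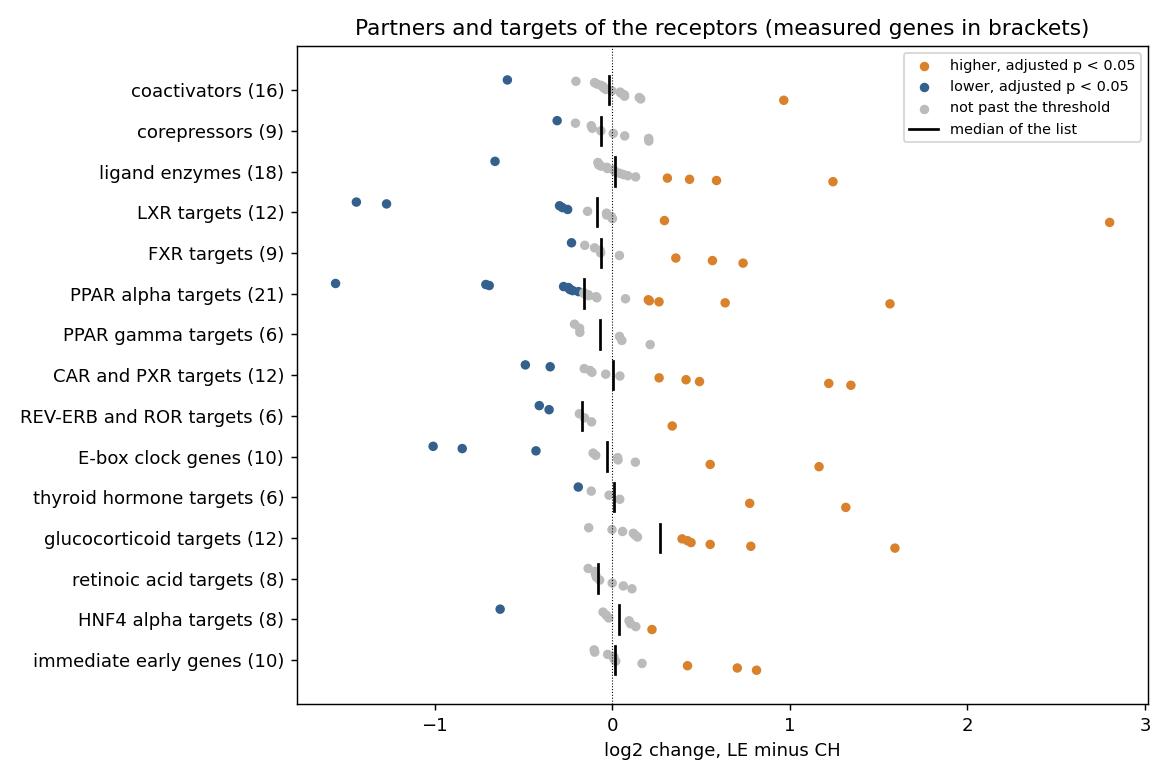
Change of the measured cofactors, ligand enzymes and target genes of the receptors, as log2 change of lovastatin and ezetimibe over cholesterol. Each point is a gene, coloured by its call, and the black line is the median of the list, which lies at 0.27 for the glucocorticoid targets and at -0.17 for the REV-ERB and ROR targets.

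The labelled tissue was checked against markers. The summed log2 signal of a list is the log2 of its summed intensities plus 1, so its brightest genes weigh the most. Hepatocyte markers were bright, with 0 of 6 measured past limma's test, 0 at an unadjusted p under 0.05 and 1 in each direction in the manner of cyberT, Apoa1 at 0.10 (SE 0.05) and Cps1 at -0.09 (SE 0.04) being the nearest, and a summed log2 signal of 16.88 to 16.89 with cholesterol and 16.86 to 16.90 with the drugs. Of 12 macrophage markers 11 rose, with a summed log2 signal of 13.25 to 13.33 against 13.62 to 13.67 and a median change of 0.37. Cd68 rose by 0.55 (SE 0.05), Cd163 by 0.50 (SE 0.07), C1qb by 0.47 (SE 0.05) and Csf1r by 0.47 (SE 0.05), and the macrophages' part in the receptor results was not tested.

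None of 10 endothelial markers passed limma's test, where 4 had an unadjusted p under 0.05 and 3 fell in the manner of cyberT, with Stab2 at -0.12 (SE 0.05) and Fcgr2b at -0.13 (SE 0.05), and the summed signal was 13.47 to 13.52 with cholesterol and 13.39 to 13.47 with the drugs. Of 9 stellate cell markers 1 fell, Col3a1, by 0.19 (SE 0.05, adjusted p = 0.0389), but did not pass when any 1 array was left out (adjusted p 0.0669 to 0.147). The summed signal of the stellate list was 13.51 to 13.55 and 13.56 to 13.63. Of 5 cholangiocyte, 7 lymphocyte and 5 neutrophil markers measured, 0 passed limma's test and 0 passed in the manner of cyberT, with 1 of each list at an unadjusted p under 0.05. The nearest in each list were Cftr (adjusted p = 0.0522), Nkg7 (adjusted p = 0.184) and Retnlg (adjusted p = 0.111), of which Cftr and Retnlg had signals under the olfactory receptor genes' 95th percentile in both diets. Without LE3, 1 cholangiocyte marker fell, and without CH2, 1 neutrophil marker rose. The summed log2 signals with cholesterol and with the drugs were 9.81 to 9.85 and 9.77 to 9.83 for cholangiocytes, 9.58 to 9.67 and 9.59 to 9.73 for lymphocytes, and 8.793 to 8.999 and 8.81 to 8.99 for neutrophils. No marker was at 0 on this scale. Of 8 pericentral markers, summed signal 15.69 to 15.73 with cholesterol and 15.70 to 15.78 with the drugs, 3 rose, Rhbg by 0.47 (SE 0.06), Lgr5 by 0.35 (SE 0.05) and Glul by 0.27 (SE 0.06), the last lost without CH1, CH2, LE2 or LE3 (adjusted p 0.0692 to 0.113). Of 5 measured periportal markers, summed signal 15.29 to 15.31 and 15.19 to 15.26, 1 rose, Hsd17b13 by 0.31 (SE 0.06), and 2 fell, Hal by 0.34 (SE 0.05) and Arg1 by 0.25 (SE 0.05). The call of Hsd17b13 was lost without CH1 (adjusted p = 0.0613, and 2.62e-05 to 0.0613 over all alternatives). The part of zonation in the receptor results was not tested either.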

How the data were processed

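The authors deposited probe set intensities on a linear scale (35556 probe sets, array medians 158 to 163). How background, normalisation and probe set summary were handled is not given in the sources used here. Partek Genomics Suite and cyberT are named in the design text. Values were taken as log2(intensity + 1), which understates changes of dim genes. Of the probe sets, 21789 carried 1 gene symbol, 1621 several and 12146 none in the platform annotation, and 21698 of the first matched a RefSeq gene. Each gene was represented by its probe set with the highest mean. Diets were compared with limma 3.58.1 (lmFit, eBayes) in R 4.3.3 over all 19938 genes, two-sided, with Benjamini-Hochberg adjustment and a threshold of 0.05. Python 3.11.15, pandas 2.3.3 and matplotlib 3.10.9 were used for tables and plots. The fit was checked on simulated data. The members and gene lists were chosen with earlier results of these data known. All members are named, and in each list the largest changes past the threshold (up to 4 genes) or, where none passed, the smallest p (up to 2). Alternatives were a replicate block, quantile normalisation, median centring, a filter on dim genes, the mean of probe sets, an intensity trend with robust prior, a test in the manner of cyberT, other pseudocounts and leaving out each array. The number of arrays limits precision.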

Additional observations from a re-analysis of the deposited data

How the results depend on the processing

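Of 19938 genes 2410 passed, 1398 higher and 1012 lower with the drugs. The split was 1460 and 1598 after quantile normalisation and 1215 and 1294 after median centring. The lower genes numbered 657 with the replicate block and 1560 with the intensity trend. Without 1 array the total was 1489 (CH1) to 1868 (LE3), with 938 to 1126 higher and 525 to 893 lower. Receptors past the threshold numbered 3 (without CH1) to 10 (without LE3), with 2 to 3 higher and 1 (without CH1) to 8 (without LE3) lower, and 5 were higher with the intensity trend and in the manner of cyberT. The labels do not state whether equal replicate numbers pair the arrays. The deviations of arrays with equal numbers correlated at -0.021, -0.097 and 0.160, and those with unequal numbers at -0.228 to 0.246. With 3 arrays per diet these correlations are tied to each other, so they cannot decide on pairing. With the replicate block 1688 genes and 9 receptors passed, the receptor lost being Nr2f2 (adjusted p = 0.0708), and of the other named genes Cyp7a1 (0.0682), Col3a1 (0.0805), Pklr (0.0825) and Klf9 (0.084) no longer passed. All 10 receptors that passed kept their direction in the alternatives run. Receptors that did not pass turned sign at small values: Nr1h3 (-0.012) and Nr4a3 (0.035) after quantile normalisation, Nr2f1 (-0.02) and Esrrb (-0.0044) after centring. Without 1 array Esrrb ranged from -0.043 to 0.087, Esrrg from -0.0022 to 0.069, Nr0b1 from -0.15 to 0.0051, Nr2f1 from -0.089 to 0.12, Nr2f6 from -0.032 to 7.06e-05, Nr4a2 from -0.10 to 0.0068 and Nr4a3 from -0.038 to 0.057. The causes were not tested.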
